A study of Mus musculus with 9 samples.

Results

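The protein subunits of the mitochondrial ribosome were followed as one gene family in B16F10, a mouse melanoma cell line, with and without disruption of Tada2b. Members were the protein-coding genes of the deposited count table whose symbol begins with Mrpl or Mrps followed by a digit, a rule that uses names and no measured value. It found 78 members among 54752 genes of the table, of which 77 were among the 17931 genes that had enough reads to be tested. Cells had been cultured in DMEM with 10% FBS, and 9 RNA sequencing libraries fell into 3 groups of 3. The GFPsg group, whose genotype is given as WT, carried a guide named for GFP. The Tada2bsg1 and Tada2bsg2 groups carried 1 of 2 guides named for Tada2b, and both have the genotype Tada2b KO. Tada2b is an adaptor subunit of the SAGA complex, a chromatin coactivator that acetylates histones. Whether each line was a clone or a pool of cells is not given in the sources used here, and the labels do not say that replicates came from separate cultures. The p-values below therefore measure only the spread between these libraries, which may be technical.

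Mitochondria keep their own ribosome to translate the few membrane proteins encoded in mitochondrial DNA, which are core subunits of the respiratory chain and of ATP synthase. The RNA of this ribosome is transcribed inside the organelle, but every protein subunit is encoded in the nucleus, made in the cytosol and imported. Part of the subunits descend from bacterial ribosomal proteins and the others are found only in mitochondria, and both kinds are needed in fixed proportion in an assembled particle.

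Read depth ran from 70555655 to 76923854 counted reads per library. The targeted transcript itself was not lower in the libraries labelled knockout: Tada2b had 28.0, 25.2 and 26.6 CPM (counts per 1000000 reads, on library sizes scaled by trimmed means) with GFPsg, 32.2, 33.3 and 32.7 with guide 1, and 28.9, 26.01 and 25.9 with guide 2. It rose with guide 1 (log2 change 0.30) and did not pass the test with guide 2 (0.02) (edgeR adjusted p over all genes), so its mRNA does not check the labels. The cell type label was checked on 7 melanocyte genes, which summed to 20630 ± 424 CPM (SD, n = 3) with GFPsg, 5082 ± 119 with guide 1 and 7162 ± 123 with guide 2. Melanocyte genes were thus present in every group, and all 7 fell in the knockout contrast (both guides averaged, minus GFPsg) with a median log2 change of -1.87. In bulk RNA, fewer cells of a type and less RNA per cell cannot be told apart. Of 10 fibroblast and endothelial genes the sum was 17.6 to 19.8 CPM with GFPsg and 213 to 259 CPM with either guide, most of it from Col1a1, while Lum, Dcn, Pecam1 and Cdh5 had too few reads to be tested. Of the 6 that were tested, 4 were called higher in the knockout contrast, 1 was called lower and 1 was not called. The 8 leukocyte genes summed to 3.61 to 3.93 CPM with GFPsg and 6.14 to 7.36 CPM with the guides. Of the 4 leukocyte genes tested 3 were called higher and 1 lower (log2 change -1.19), and Ptprc was at 0 throughout. The 6 epithelial genes summed to at most 1.30 CPM. What part these shifts have in the changes described below was not tested.

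In scaled CPM the summed level of the family overlapped between groups, while single subunits moved in both directions. Summed over all members, GFPsg libraries had 4790, 5245 and 5187 CPM, guide 1 libraries 5058, 5151 and 5280, and guide 2 libraries 4669, 4930 and 5133. These ranges overlapped, and the spread within a group was as large as the distance between groups. Replicate 1 was the lowest library of each of the 3 groups, for the large subunit, the small subunit and also the 76 cytosolic ribosomal protein genes. As a share of all counted reads, without that scaling, members took 0.488 ± 0.014% (SD, n = 3) with GFPsg, 0.526 ± 0.008% with guide 1 and 0.501 ± 0.019% with guide 2. On that scale the groups separated in part: the guide 1 libraries, at 0.521 to 0.535%, were all above the GFPsg libraries, at 0.471 to 0.496%, and above those of guide 2, at 0.482 to 0.520%, which overlapped with GFPsg. The same held for summed TPM (reads per base of exon, scaled to the same total in every library), with 4486 to 4638 for guide 1 against 4244 to 4325 for GFPsg and 4268 to 4464 for guide 2. The median member stood at -0.07, 0.05 and 0.03 on the log2 scale in the GFPsg libraries relative to their mean, at 0.07, 0.03 and 0.09 with guide 1, and at -0.09, -0.01 and 0.02 with guide 2.

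**Figure D1:**
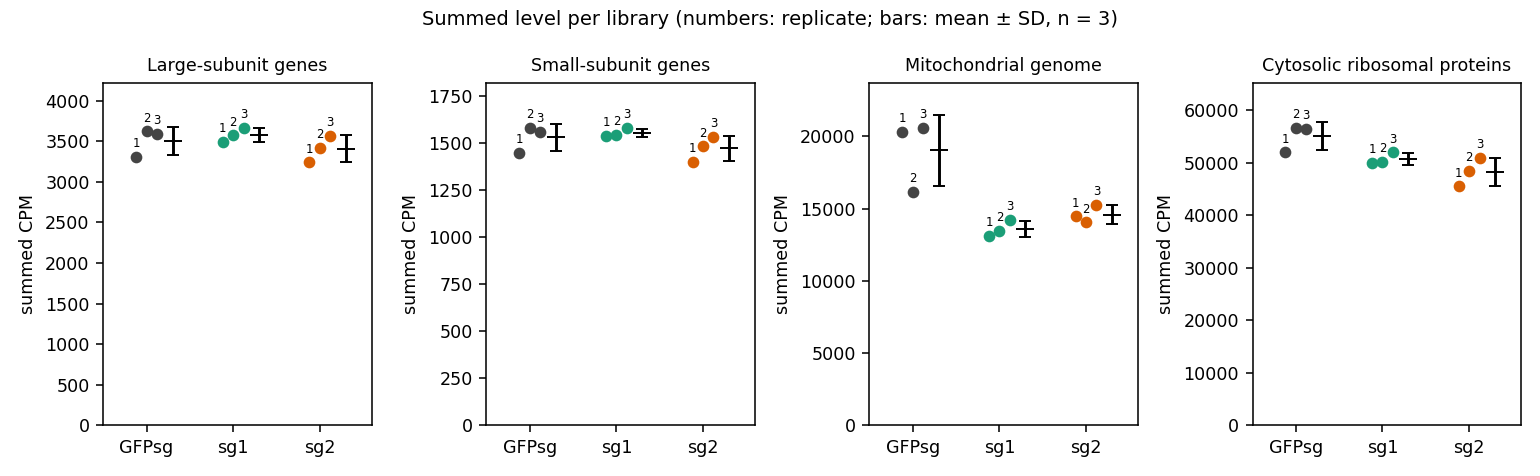
Summed CPM per library (vertical axes start at 0) for large-subunit members, small-subunit members, the rRNAs and mRNAs of the mitochondrial genome and cytosolic ribosomal proteins, by group (GFPsg; sg1 and sg2, the guides to Tada2b); points are libraries numbered by replicate, bars the mean ± SD of 3. In these CPM, members of both subunits overlap between groups, whereas the mitochondrial genome reached at least 16163 CPM in each GFPsg library and at most 15265 CPM in any guide library, a separation that is lost in shares of reads and in TPM.

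Transcript levels within the family spanned a wide range even though an assembled ribosome holds its subunits in fixed numbers. Compared per length in TPM, the GFPsg mean ran from 7.10 for Mrpl23 to 208 for Mrps33, with a median of 44.8 over the 77 members that had reads. The length is that of all annotated exons of a gene joined, so these TPM and their order depend on the annotation. Mrpl13, which had the highest read count of any member in a library, has 7936 such bases and had 52.1 TPM. Mrps33 at 208 ± 7.51 TPM, Mrps23 at 171 ± 3.16 and Mrps21 at 140 ± 4.37 were the 3 highest in TPM, and each stood apart from the next by more than its SD. Below them, Mrpl54 at 134 ± 0.72, Mrps24 at 132 ± 3.30, Mrpl22 at 131 ± 7.62 and Mrpl12 at 131 ± 4.17 did not differ beyond their spread. With guide 1 the first place was shared: Mrps33 had 182 ± 1.99 and Mrps23 183 ± 1.81 TPM. With guide 2 Mrps33 was above Mrps23, at 178 ± 6.39 against 171 ± 2.74 TPM. At the other end, Mrpl23 had 7.10 ± 0.405 TPM and Mrps5 9.10 ± 0.55. Mrpl53 had 0 reads in all 9 libraries, where a count of 0 allows up to 3 reads, or 0.0380 to 0.0450 CPM, per library (counting error only). Its count cannot be read as absence of the transcript, because 88.0% of its exon bases are also exon of another annotated gene on the same strand, Gm42688. It is the 1 member without a test.

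A test across all genes (edgeR's quasi-likelihood test with Benjamini-Hochberg adjustment over 17931 genes, called at an adjusted p under 0.05) gave 20 members higher, 15 lower and 42 not called in the knockout contrast. Among all genes tested 24.7% were called higher and 26.3% lower, and among the 12864 protein-coding genes 30.6% and 30.8%, so that members were not called more often than other genes. Member changes were small: they ran from -0.60 to 0.49 on the log2 scale around a median of 0.01 (all genes tested, -0.02), with quartiles of -0.09 and 0.11 against -0.25 and 0.22 for all genes tested. No member reached a change of 2-fold with a call, which 11.2% of all genes did. Of the 35 called members 22 kept the call under all 15 alternative analyses, 11 higher and 11 lower. The counts depend on 2 choices. Scaling by library size alone gave 36 higher and 11 lower, with the median of all genes tested moving from -0.02 to 0.07. Leaving out GFPsg replicate 1, the GFPsg library in which the median member was lowest, gave 12 higher and 22 lower. The shares of all genes called higher and lower under these choices are not set beside these counts. Whether members moved apart from other genes cannot be read from them.

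**Figure D2:**
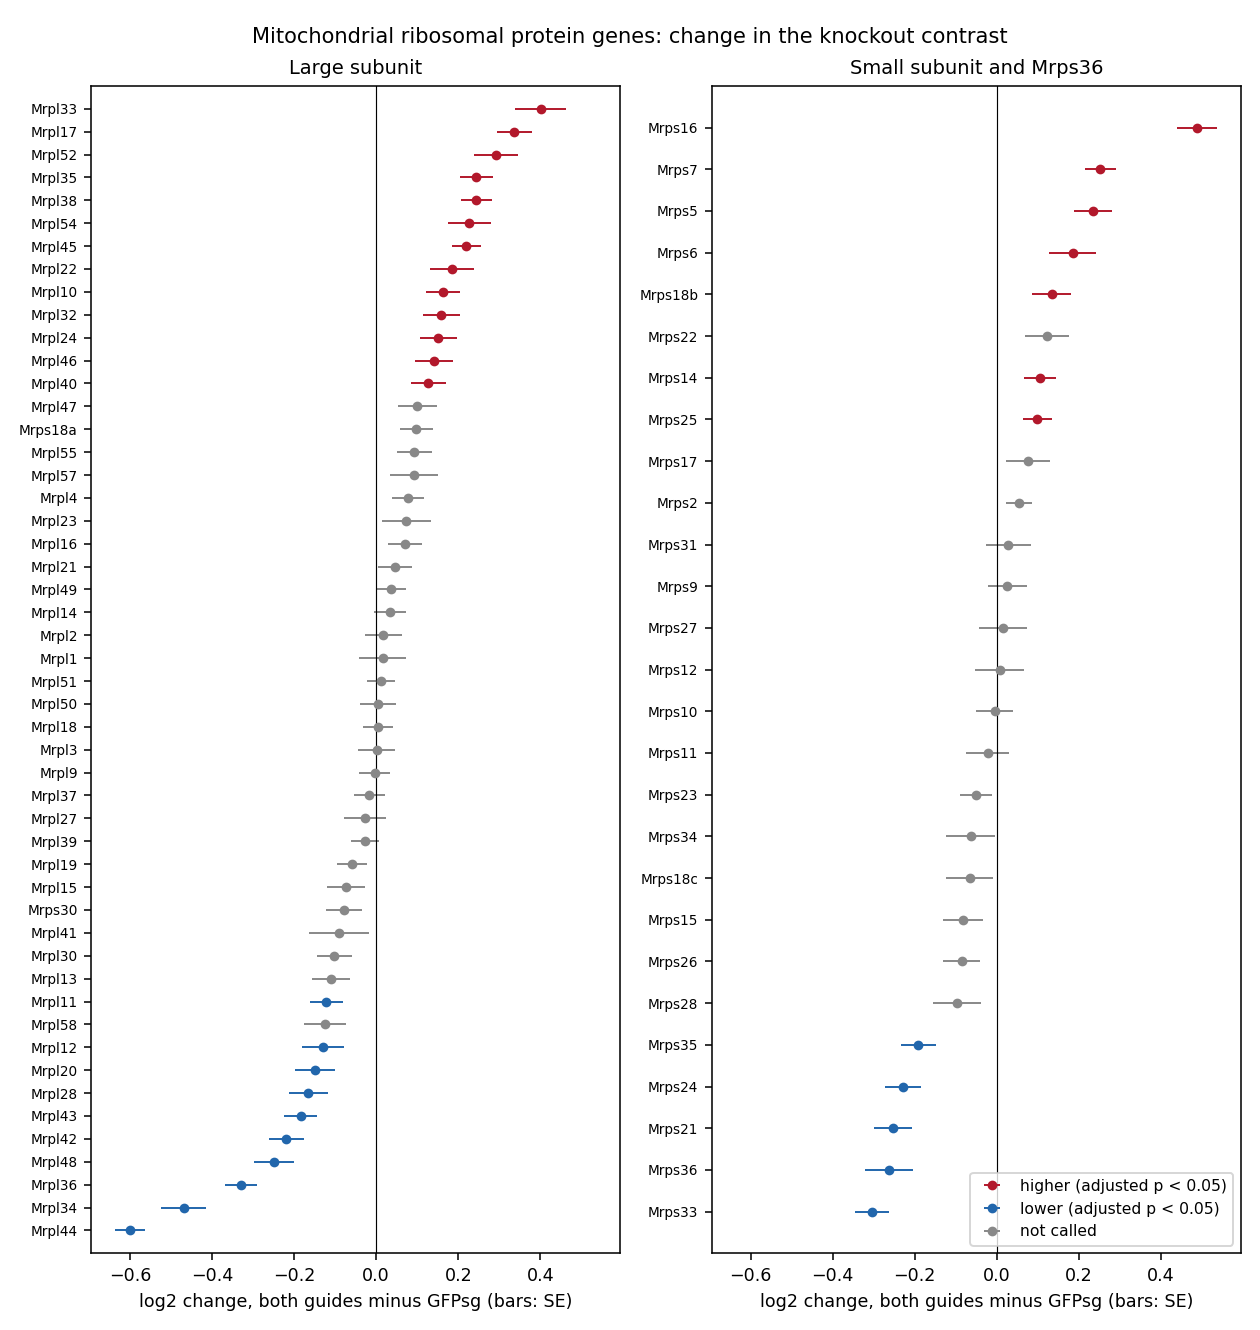
Log2 change of each tested member in the knockout contrast (horizontal axis; points, edgeR estimates; bars, 1 SE), ordered by size, with large-subunit members on the left and small-subunit members and Mrps36 on the right; red and blue mark an adjusted p under 0.05. Members lie between -0.60 for Mrpl44 and 0.49 for Mrps16, with 20 called higher and 15 called lower.

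The separation of libraries gave a like picture without a model. For 12 members all 6 guide libraries were above all 3 GFPsg libraries in CPM, for 10 all 6 were below, and for 56, Mrpl53 included, the groups overlapped. Over all genes tested these patterns held for 21.8% and 22.2%. Variation between libraries was low for these genes: the median member had a coefficient of variation within a group of 4.81% with GFPsg, 3.21% with guide 1 and 5.502% with guide 2, against 6.88%, 5.30% and 6.88% for all genes tested. Members with reads had 676 to 16379 of them per gene and library. All genes tested include ones with fewer reads, and the coefficients were not compared at matched read level.

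Large-subunit members on the lower side were led by Mrpl44, Mrpl34 and Mrpl36. Mrpl44 (ENSMUSG00000026248, chr1:79776018-79781445 on the plus strand of mm10) encodes a mitochondria-specific subunit with a ribonuclease III-like fold. It had 68.4, 70.2 and 67.0 CPM with GFPsg, 43.6, 46.2 and 45.8 with guide 1, and 43.6, 46.9 and 45.4 with guide 2. The guide libraries lay together, well under every GFPsg library, and the log2 change was -0.60 ± 0.04 (SE; edgeR adjusted p = 3.3e-10), with -0.60 for either guide alone.

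Mrpl34 (ENSMUSG00000034880, chr8:71464959-71465747, plus strand) and Mrpl36 (ENSMUSG00000021607, chr13:73328513-73332178, plus strand) encode large-subunit proteins of bacterial descent. Mrpl34 had 36.7, 40.0 and 39.4 CPM with GFPsg, 25.2, 28.2 and 28.8 with guide 1, and 26.4, 28.3 and 31.0 with guide 2, without overlap, and its log2 change was -0.47 ± 0.05 (edgeR adjusted p = 1.3e-06). Mrpl36 had 46.7, 50.01 and 49.8 CPM with GFPsg, 38.4, 37.6 and 39.3 with guide 1, and 39.1, 37.9 and 40.8 with guide 2, and its log2 change was -0.33 ± 0.04 (edgeR adjusted p = 1.6e-06). Both stayed close between the guides. Mrpl36 starts within 29 bases of Ndufs6, an accessory subunit of respiratory complex I on the opposite strand, by the annotated gene starts, and Ndufs6 also fell, with a log2 change of -0.33 ± 0.05.

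Smaller declines in the large subunit were found for Mrpl48 (-0.25 ± 0.05) and Mrpl42 (-0.22 ± 0.04), both mitochondria-specific. Mrpl43 (-0.18), Mrpl28 (-0.17), Mrpl20 (-0.15), Mrpl12 (-0.13) and Mrpl11 (-0.12) were called lower as well. The last 4 of these lost the call in 3 to 10 of the 15 alternatives, among them leaving out GFPsg replicate 2 or 3. Mrpl12, the stalk protein that contacts translation factors, was the weakest of them: its 94.2, 110.2 and 103 CPM with GFPsg overlapped with 89.7, 94.1 and 101 with guide 1 and 85.1, 94.8 and 97.2 with guide 2 (edgeR adjusted p = 0.048). Mrpl58, a peptidyl-tRNA hydrolase built into the large subunit that frees stalled ribosomes, had a log2 change of -0.12 ± 0.05 and just missed the threshold (edgeR adjusted p = 0.050).

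Higher large-subunit members were led by Mrpl33, Mrpl17 and Mrpl52. Mrpl33 (ENSMUSG00000106918, chr5:31596935-31664384, plus strand), of bacterial descent, had 67.4, 73.8 and 76.2 CPM with GFPsg, 95.2, 102 and 107 with guide 1, and 85.1, 83.0 and 103 with guide 2. No guide library fell to the level of a GFPsg library, and the log2 change was 0.40 ± 0.06 (edgeR adjusted p = 3.2e-05). Guide 2 replicate 3 stood above the other guide 2 libraries, and this was the widest relative spread of any member in that group (a coefficient of variation of 11.95%).

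Mrpl17 (ENSMUSG00000030879, chr7:105803206-105811099, minus strand), also of bacterial descent, had 68.0, 74.8 and 71.8 CPM with GFPsg, 93.1, 91.7 and 97.0 with guide 1, and 82.2, 85.9 and 92.5 with guide 2. The groups did not overlap, and the log2 change was 0.34 ± 0.04 (edgeR adjusted p = 3.8e-06). Mrpl52, a mitochondria-specific subunit, had 30.2, 31.2 and 28.4 CPM with GFPsg, 35.6, 39.8 and 37.4 with guide 1, and 32.7, 36.5 and 38.2 with guide 2 (log2 change 0.29 ± 0.05, edgeR adjusted p = 0.00019). Mrpl35 (0.24), Mrpl38 (0.24), Mrpl54 (0.23) and Mrpl45 (0.22) followed. Mrpl45, which lies by the exit of the peptide tunnel where the ribosome meets the inner membrane, was among the steadiest members in GFPsg libraries at 64.5, 64.6 and 64.0 CPM, and all 6 guide libraries had 73.0 to 77.9. Mrpl10 (0.16), Mrpl22 (0.19), Mrpl32 (0.16), Mrpl24 (0.15), Mrpl46 (0.14) and Mrpl40 (0.13) made up the rest of the higher calls, and of these all but Mrpl10 lost the call without GFPsg replicate 1.

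Among small-subunit members Mrps16 had the highest change of the family. Mrps16 (ENSMUSG00000049960, chr14:20389304-20393634, minus strand), of bacterial descent, had 23.1, 22.6 and 23.0 CPM with GFPsg, 33.7, 33.5 and 34.4 with guide 1, and 27.7, 31.0 and 32.6 with guide 2. Every guide library was above every GFPsg library, guide 2 replicate 1 least so. The log2 change was 0.49 ± 0.05 (edgeR adjusted p = 2.5e-07), with 0.56 for guide 1 and 0.41 for guide 2. Mrps7, the subunit around which the head of the small subunit assembles in bacteria, had 82.1, 89.2 and 87.1 CPM with GFPsg, 105, 107 and 109 with guide 1, and 94.6, 97.1 and 104 with guide 2, and its log2 change was 0.25 ± 0.04 (edgeR adjusted p = 3.0e-05). Mrps5, near the bottom of the family in TPM, rose by 0.24 ± 0.05 on the log2 scale. Mrps6 (0.19), Mrps14 (0.10) and Mrps25 (0.10) were called higher with smaller changes that were lost in 1 to 3 alternatives.

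The member with the highest TPM in the control, Mrps33, was on the lower side. It had 169, 177 and 185 CPM with GFPsg, 141, 146 and 152 with guide 1, and 132, 140.2 and 149.6 with guide 2, without overlap, and its log2 change was -0.30 ± 0.04 (edgeR adjusted p = 1.1e-05). Mrps21 (-0.25 ± 0.05) and Mrps24 (-0.23 ± 0.04), of bacterial descent, and the mitochondria-specific Mrps35 (-0.19 ± 0.04) were the other small-subunit members called lower, each without overlap between guide and GFPsg libraries. Mrps23, second in control TPM, had a log2 change of -0.05 ± 0.04 and was not called.

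**Figure D3:**
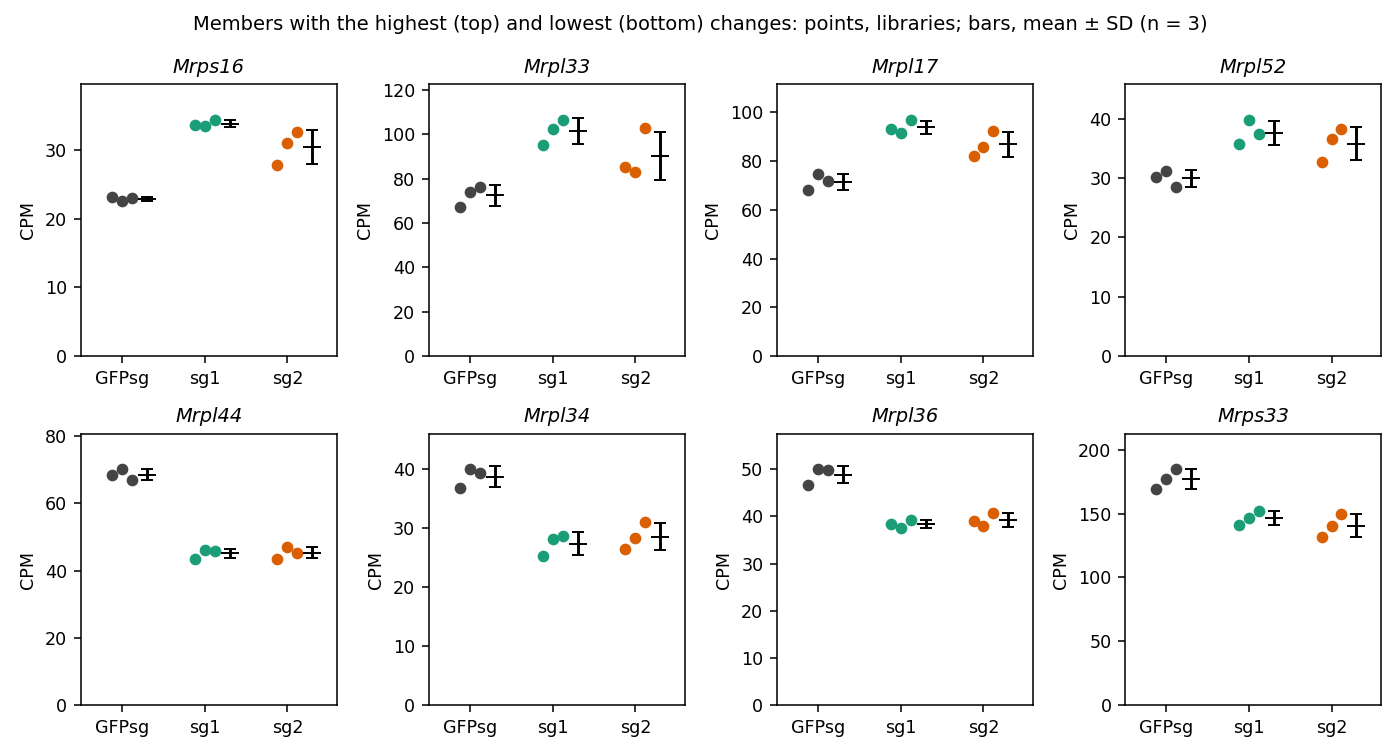
CPM per library (vertical axes start at 0) of the 4 members with the highest change in the knockout contrast (top row) and the 4 with the lowest (bottom row); points are libraries and bars the mean ± SD of 3 per group. In each of these 8 genes no guide library (sg1, sg2) reaches into the GFPsg range, as for Mrpl44 with 67.0 to 70.2 CPM against 43.6 to 46.9 CPM.

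Calls in both directions were found in every class of subunit, as among all genes tested, of which 24.7% were higher and 26.3% lower. Of 30 large-subunit members of bacterial descent 7 were higher and 6 lower (median log2 change 0.02), and of 20 tested mitochondria-specific ones 6 were higher and 4 lower (0.01). In the small subunit the counts were 5 higher and 2 lower of 16 of bacterial descent (0.02), and 2 higher and 2 lower of 10 mitochondria-specific ones (-0.02). These classes follow the naming of subunits by family, under which Mrps18c counts as of bacterial descent and its paralogs Mrps18a and Mrps18b as mitochondria-specific. Neither the 50 tested members of the large subunit (0.01) nor the 26 of the small subunit (0.01) had a median away from that of the family.

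Mrps36 keeps its ribosomal name but is now placed in the 2-oxoglutarate dehydrogenase complex of the citric acid cycle. It had 32.1, 38.6 and 36.9 CPM with GFPsg, 28.1, 32.2 and 31.6 with guide 1, and 27.7, 29.6 and 30.1 with guide 2, and its log2 change was -0.26 ± 0.06 (edgeR adjusted p = 0.0011). The groups overlapped by 1 guide 1 library. A processed pseudogene, Mrps36-ps1, is counted as a separate row with 527 to 621 reads per library and was also called lower (-0.22), so reads of the gene and its copies may have been split between rows. The other 4 pseudogene rows that match the name pattern, Mrps36-ps2, Mrps36-ps3, Mrpl23-ps1 and Mrpl48-ps, were not called or had too few reads.

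Mrps18a, Mrps18b and Mrps18c are all related to 1 bacterial protein and occupy separate sites, the first in the large subunit and the others in the small one. Mrps18b was called higher (0.13 ± 0.05, edgeR adjusted p = 0.026), a call lost in 3 of the 15 alternatives, among them leaving out GFPsg replicate 1 or 3. Mrps18a had 60.5, 61.3 and 62.2 CPM with GFPsg, 69.99, 72.8 and 65.3 with guide 1, and 59.0, 63.8 and 63.6 with guide 2. All guide 1 libraries were thus above GFPsg (log2 change 0.18, edgeR adjusted p = 0.0045) while guide 2 overlapped with it (0.02), and the combined contrast missed the threshold at 0.10 ± 0.04 (edgeR adjusted p = 0.054). Mrps18c overlapped between all groups with a log2 change of -0.07 ± 0.06. Mrps30, another member with a small-subunit name that sits in the large subunit, had a change of -0.08 ± 0.04 and was not called.

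Taken guide by guide, guide 1 gave 26 members higher and 11 lower (medians 0.04, all genes tested -0.01), where 23.8% and 24.5% of all genes were called. Guide 2 gave 11 higher and 17 lower (medians -0.03 and -0.02), where 22.1% and 23.0% of all genes were called. The 2 contrasts share their GFPsg libraries, so they are not independent of each other. Side by side, 11 members were higher with both guides and 11 lower with both, 15 were called higher with guide 1 alone, 6 lower with guide 2 alone, and 34 with neither. The share of all genes tested in each of these combinations was not computed, so whether these counts are unusual cannot be read from them. Guide 2 had lower estimates than guide 1 for 70 of 77 members, with a median difference of -0.07 on the log2 scale. Over all genes tested it had lower estimates for 9130 of 17931, with a median difference of -0.003. Cytosolic ribosomal protein genes were shifted like the members, with lower estimates for 72 of 76 and a median difference of -0.08. Tested directly, 1 member differed between the guides, Mrpl21 (-0.18 ± 0.05, edgeR adjusted p = 0.040), where 3.68% of all genes did. Mrpl21 had 48.1, 48.0 and 49.7 CPM with guide 1, 41.4, 43.0 and 44.0 with guide 2, and 42.7, 47.1 and 42.7 with GFPsg. The call was lost in 6 of the 15 alternatives, each of them leaving out a library, with adjusted p up to 0.20. With the replicate number as a block more members were called between the guides, where 9.51% of all genes were. Next in order were Mrps18a (-0.16, adjusted p = 0.078), Mrpl24 (-0.15), Mrps16 (-0.15) and Mrps7 (-0.12), none of which passed.

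**Figure D4:**
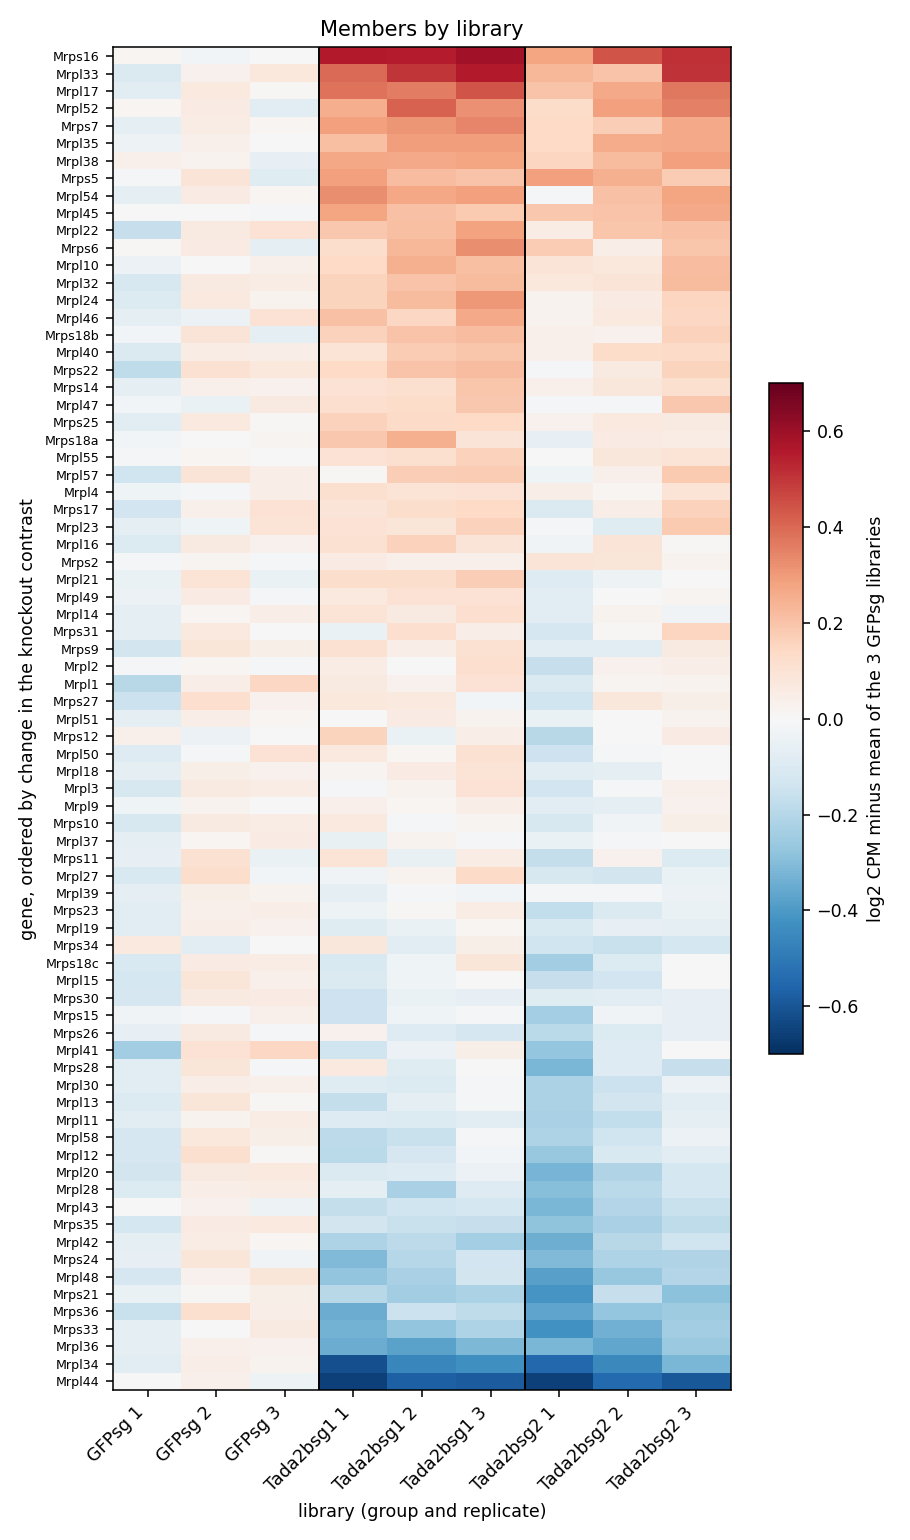
Log2 CPM of the 77 tested members (rows, ordered by change in the knockout contrast) in each of the 9 libraries (columns), minus the mean of the 3 GFPsg libraries; red is higher and blue lower. The guide libraries share the direction of the uppermost and lowermost genes, and GFPsg 1 and Tada2bsg2 1 are paler or bluer than the other libraries of their groups, with member medians of -0.07 and -0.09.

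Level and change went together to some degree. The 15 members called lower had a median GFPsg level of 82.3 TPM and a median exon length of 1532 bases, the 20 called higher 34.5 TPM and 2402.5 bases, and the 42 not called 41.9 TPM and 2937.5 bases. Across the 77 members Spearman's rho between change and GFPsg level was -0.38, and it was -0.18 across 12864 protein-coding genes. The GFPsg libraries enter both measures, TPM depend on the annotated exon length and genes are not replicates, so these are descriptions. Among protein-coding genes the levels of lower and higher calls, 14.9 and 7.54 TPM, were ordered in the same way.

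Members were scattered over 17 chromosomes, with the most (11) on chromosome 11. Of these 11, 5 were higher and 2 lower, beside 24.7% and 26.3% of all genes tested. By annotated gene starts, 33 members lay head to head within 1000 bases of a protein-coding gene on the opposite strand. Of the 4 such members called lower, 3 had a neighbour that was also called lower, as had 6 of the 21 that were not called and 1 of the 8 called higher. Among all protein-coding genes tested 30.8% were called lower. With so few pairs this is a description only. Those 3 were Mrpl44 with Wdfy1 (-0.19), Mrpl36 with Ndufs6, and Mrpl48 with Rab6a (-0.23), and in each of these pairs the genes also share exon bases (7.66%, 2.58% and 8.68% of the member's). Of the 8 called higher, none had a neighbour that was called higher, beside 30.6% of all protein-coding genes tested. The pair Mrpl46 and Mrps11, which are head to head with each other, had changes of 0.14 and -0.02. Mrpl30 had a change of -0.10 without a call beside Mitd1, a neighbour with 0.72. Some members share exon bases with other genes, and the strand setting of the counting was not given, so their reads may include the neighbour's: Mrps25 shares 69.8% with Nr2c2 on the other strand, Mrps34 63.4% with Mapk8ip3 there and 37.0% with Nme3 on its own strand, which had 0 reads in every library, Mrpl19 36.0% with Gcfc2, Mrpl43 33.4% with Twnk, Mrps18b 30.5% with Gm16279 and Mrpl24 26.3% with Rrnad1.

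Promoter windows of the 2 members with the highest change and the 2 with the lowest are shown because these carry the opposite ends of the response. The windows, of 300 bases from 250 before to 50 after the transcript start (RefSeq, GRCm38.p6), read 5′ to 3′ on the gene's strand. Capitals mark matches, on either strand, to 1 of 7 short motifs of factors known at promoters of nuclear mitochondrial or housekeeping genes: NRF1 (GCGCNTGCG), the ETS family with GABPA (CCGGAAGT), YY1 (AANATGGCG), the E-box bound by MYC and relatives (CACGTG), ZNF143 (CTACAANTC), the SP family (GGGCGG) and the TATA box (TATAAA).
Mrps16, chr14:20393585-20393884, minus strand: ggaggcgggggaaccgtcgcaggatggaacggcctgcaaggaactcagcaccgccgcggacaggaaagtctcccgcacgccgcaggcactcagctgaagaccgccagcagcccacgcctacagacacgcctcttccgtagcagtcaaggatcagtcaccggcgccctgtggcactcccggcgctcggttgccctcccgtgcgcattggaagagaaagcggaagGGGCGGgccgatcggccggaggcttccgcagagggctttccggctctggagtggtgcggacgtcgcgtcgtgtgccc
Mrpl33, chr5:31613701-31614000, plus strand: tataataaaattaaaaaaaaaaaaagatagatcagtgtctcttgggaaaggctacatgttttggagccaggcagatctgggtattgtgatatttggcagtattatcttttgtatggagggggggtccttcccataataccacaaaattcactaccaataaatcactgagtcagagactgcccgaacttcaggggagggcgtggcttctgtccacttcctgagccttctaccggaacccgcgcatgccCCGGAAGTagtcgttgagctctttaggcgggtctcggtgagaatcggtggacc
Mrpl44, chr1:79775768-79776067, plus strand: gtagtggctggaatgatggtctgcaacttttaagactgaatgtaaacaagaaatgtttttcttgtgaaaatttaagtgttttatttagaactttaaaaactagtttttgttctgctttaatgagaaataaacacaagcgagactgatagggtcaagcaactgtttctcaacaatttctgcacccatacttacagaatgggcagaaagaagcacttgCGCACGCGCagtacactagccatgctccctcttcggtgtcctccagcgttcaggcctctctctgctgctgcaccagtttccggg
Mrpl34, chr8:71464676-71464975, plus strand: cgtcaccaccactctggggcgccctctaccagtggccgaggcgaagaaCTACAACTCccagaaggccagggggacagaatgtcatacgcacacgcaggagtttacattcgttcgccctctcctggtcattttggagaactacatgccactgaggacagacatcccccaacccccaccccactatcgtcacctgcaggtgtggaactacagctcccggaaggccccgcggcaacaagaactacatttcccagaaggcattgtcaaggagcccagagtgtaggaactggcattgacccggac
The Mrps16 window held an SP match and the Mrpl33 window an ETS match near the start. Mrpl44 had an NRF1 match, read on the reverse strand, 34 bases before its start, and Mrpl34 a ZNF143 match 202 bases before. The Mrpl33 window belongs to a RefSeq start 17016 bases inside the GENCODE gene start. A match is a run of letters and not evidence of binding, and a window without one says nothing of the factor.

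In all, 75 windows of 69 members were available. NRF1 letters were in 24.0% of member windows, against 6.31% of 32851 windows of all genes and 12.3% of 14057 windows of tested genes. Both background sets leave out chromosome 18. ETS letters were in 16%, against 3.89% and 7.66%, and YY1 letters in 14.7%, against 2.38% and 4.65%. ZNF143 letters were in 5.33%, against 1.42% and 2.48%. The E-box was in 9.33%, against 7.15% and 9.68%, the SP letters in 52.0%, against 35.7% and 59.7%, and the TATA letters in 6.67%, against 13.6% and 7.498%. By call, NRF1 letters were in windows of 7 of 18 higher members, 4 of 14 lower ones and 7 of 36 not called, and ETS letters in 2, 2 and 8 of the same. The E-box was in 0 of 18 higher and 2 of 14 lower members, too few to compare.

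Of 14 tested transcription factors and coactivators of nuclear mitochondrial genes, 4 fell and 2 rose (median log2 change -0.06), beside 26.3% and 24.7% of all genes tested. With library size alone 3 fell and 4 rose (median 0.03). Myc, which drives ribosome and mitochondrial biogenesis genes, had 78.9, 73.0 and 74.4 CPM with GFPsg, 41.9, 39.7 and 39.9 with guide 1, and 52.0, 50.1 and 49.7 with guide 2, a log2 change of -0.74 ± 0.04 (edgeR adjusted p = 2.0e-11). The coactivators Ppargc1a (-0.37 ± 0.04) and Ppargc1b (-0.56 ± 0.08) also fell. Nrf1 (-0.09) and Gabpa (0.08) were not called, and Yy1 rose slightly (0.09).

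The partners of the ribosome were read from lists of their machinery. Of 5 subunits not named Mrpl or Mrps, Aurkaip1 was called higher (0.11 ± 0.04), and Dap3 (-0.09 ± 0.04), the GTP-binding subunit of the head, and Chchd1 (-0.07 ± 0.06) were not called. Of 28 assembly and rRNA modification factors 3 rose and 5 fell (median 0.01). Mpv17l2, an inner membrane protein needed for ribosome assembly, had 26.6, 27.0 and 25.04 CPM with GFPsg, 15.4, 13.2 and 14.99 with guide 1, and 15.2, 16.6 and 17.2 with guide 2, and its log2 change of -0.77 ± 0.06 (edgeR adjusted p = 3.6e-09) exceeded that of any member. The pseudouridine synthase Trub2 (-0.51 ± 0.04) and the rRNA methyltransferase Mrm1 (-0.46 ± 0.06) fell too, whereas Mrm3, another rRNA methyltransferase, rose (0.27 ± 0.05).

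Of 14 tested translation factors 2 rose and 5 fell (median -0.03), among them the elongation factor Guf1 (-0.33 ± 0.04) and Lrpprc (-0.22 ± 0.03), which stabilises mitochondrial mRNAs, on the lower side and Gfm2 (0.27 ± 0.04), a ribosome recycling factor, on the higher. Of 20 genes for mitochondrial tRNA charging 6 rose and 5 fell (median -0.01). Gatc (0.30 ± 0.05), for glutamine, and Rars2 (0.24 ± 0.05), for arginine, were among those that rose. Of 23 genes of mitochondrial DNA transcription and RNA processing 5 rose and 3 fell (median -0.02). The RNA-degrading Pnpt1 (0.43 ± 0.04) and the tRNA-processing Elac2 (0.42 ± 0.04) rose, and Grsf1 (-0.21 ± 0.03), of the RNA granules, fell. Of 26 protein import genes 6 rose and 5 fell (median -0.02), with Timm21 (-0.52 ± 0.05) and the receptor Tomm20 (-0.29 ± 0.05) lower and the pore subunit Tomm40 (0.25 ± 0.04) higher. Each of these 5 lists, like the members, held calls in both directions around a median close to that of all genes tested. Among all genes tested 24.7% were higher and 26.3% lower, so mixed calls are not particular to these lists. With library size alone as the scale the counts shifted upward: assembly factors had 7 higher and 4 lower, translation factors 5 and 3, tRNA charging 10 and 1, transcription and RNA processing 8 and 1, import 12 and 3, and their medians lay between 0.06 and 0.09.

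**Figure D5:**
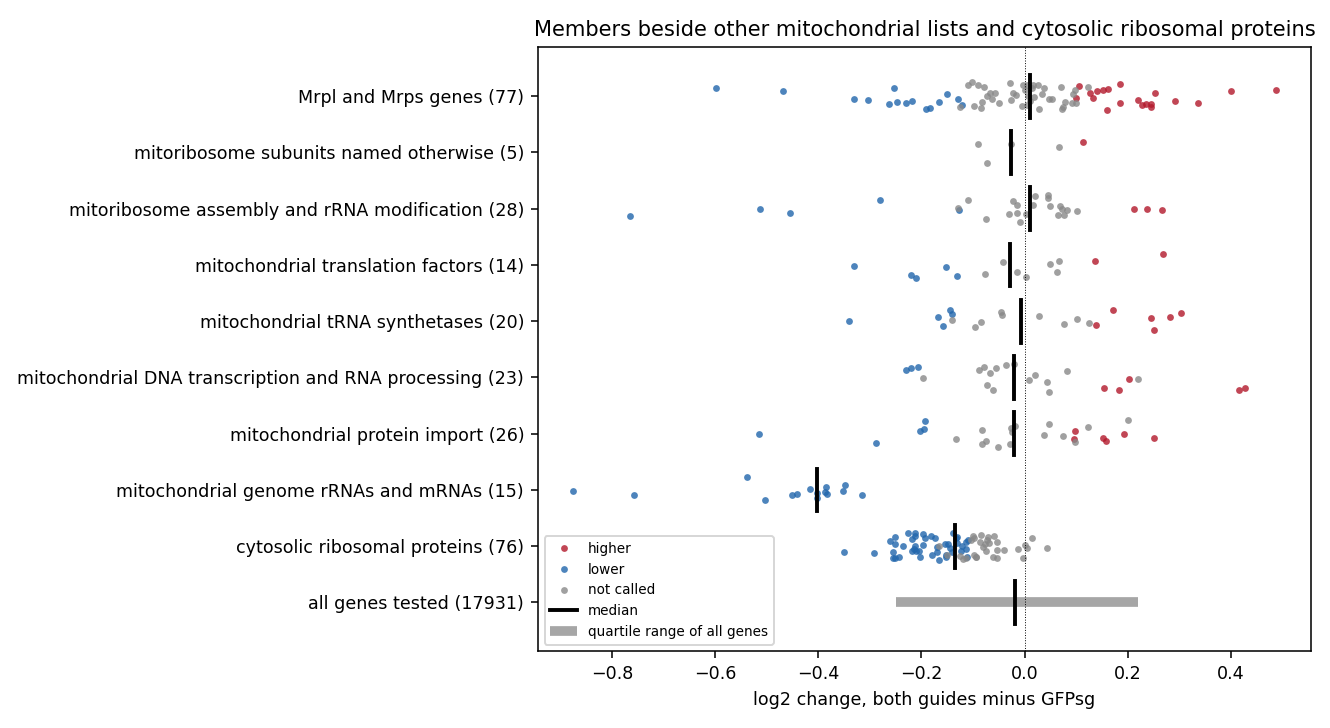
Log2 change in the knockout contrast (horizontal axis) of each tested gene in the member family, 6 lists of mitochondrial partners, the mitochondrial genome and the cytosolic ribosomal proteins (rows, number tested in brackets; vertical scatter within a row has no meaning); black ticks are medians and the grey bar spans the quartiles of all genes tested. Members and partners spread to both sides of 0, whereas the mitochondrial genome (median -0.40) and the cytosolic ribosomal proteins (-0.14) lie to the lower side.

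RNAs made from the mitochondrial genome went one way. All 15 rRNAs and mRNAs measured were called lower, beside 26.3% of all genes tested, with a median log2 change of -0.40. All were also lower with library size alone as the scale (-0.32). With guide 1 alone 15 were called lower, and with guide 2 alone 14. mt-Atp6, of ATP synthase, had 2266, 2092 and 2371 CPM with GFPsg, 1429, 1694 and 1718 with guide 1, and 1627, 1713 and 1729 with guide 2 (log2 change -0.44 ± 0.05, edgeR adjusted p = 1.7e-06). mt-Co3, of cytochrome c oxidase (-0.50 ± 0.05), and mt-Nd3, of complex I (-0.35 ± 0.04), fell as well. The ribosome's own rRNAs, counted here in libraries from an mRNA kit, had the widest errors. Their changes were -0.88 ± 0.22 for mt-Rnr2 and -0.76 ± 0.25 for mt-Rnr1. GFPsg replicate 2 had the lowest summed level of its group, and exceeded every guide library in scaled CPM. It did not on the other scales: it held 1.53% of reads and 36332 TPM, and guide 2 replicate 3 held 1.55% and 36553 TPM.

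Cytosolic ribosomal protein genes, the counterpart family, had a narrower and lower-shifted pattern. Of 76 tested, 45 were called lower and none higher (median log2 change -0.14), compared with 15 lower and 20 higher of 77 mitochondrial members (median 0.01). Among all genes tested 26.3% were lower and 24.7% higher. With library size alone the split of the cytosolic genes was 26 lower and 2 higher (-0.05). Their changes ran from -0.35 to 0.04, a smaller range than the -0.60 to 0.49 of the mitochondrial family. No test of the difference between the families was made, and these counts are set beside each other as descriptions.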

How the data were processed

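RNA sequencing libraries of B16F10 cells (3 GFPsg, 3 Tada2bsg1, 3 Tada2bsg2, grouped by their titles) were analysed from the deposited table of raw read counts per gene, which the authors had not normalized, as its whole-number values show. The library kit was KAPA Stranded mRNA-Seq, per the labels' protocols. Per the submitters' processing notes, bcl2fastq, HISAT2 and HTSeq were used with mm10. Their versions, the annotation, the strand setting and the treatment of reads with several alignments are not given in the sources used here. Reads of overlapping genes, antisense genes and near-identical copies can therefore be counted low or in the wrong row.

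Ensembl identifiers were matched to GENCODE M21 (54723 of 54752), which gave symbols, gene types, positions and exon lengths for TPM. Genes were filtered with edgeR's filterByExpr (minimum count 10), scaled by trimmed means and fitted as 1 model of 3 groups with edgeR 4.0.16 quasi-likelihood (R 4.3.3, limma 3.58.1). Contrasts were both guides averaged minus GFPsg, each guide minus GFPsg, and guide 2 minus guide 1. The fit was run on simulated data with 1 spread for all genes and few changed genes. That setting is simpler than these data, so it checks the code and not the calls. Alternatives were DESeq2 1.42.0, its size factors, library size alone, no filter, a replicate block, only the groups compared, and leaving out each library.

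Genes were named by rule: the 10 highest and 10 lowest changes among members called in the knockout contrast and in the same direction with both guides, the 5 lowest p between guides, the 3 highest and lowest levels, the Mrps18 paralogs, Mrps30, Mrps36, Mrpl12 and Mrpl58, and the 3 lowest p in each partner list, of which 1 gene is not reported here. Other called members, neighbours and genes beside them were named after their values were seen. Members and lists were chosen with earlier results of these data known. Counting error was small at 70555655 to 76923854 reads per library, so the number of libraries limits precision.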

Additional observations from a re-analysis of the deposited data

Results flagged for a closer look

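In the main fit, which has no replicate block, Mrpl21 was the 1 member for which the guides differed, tested as guide 2 minus guide 1. Its log2 change was -0.18 ± 0.05 (edgeR quasi-likelihood, adjusted p = 0.040). All 3 guide 1 libraries (48.0 to 49.7 CPM) were above all 3 guide 2 libraries (41.4 to 44.0 CPM), and the GFPsg libraries (42.7 to 47.1 CPM) reached from the one range toward the other. Over the alternatives its adjusted p ranged from 0.0078 to 0.20. What accounts for the difference was not tested.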

How the results depend on the processing

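With library size alone as the scale, higher members numbered 36 in the knockout contrast, 40 with guide 1 and 27 with guide 2, and the member medians became 0.10, 0.13 and 0.060. That scale moved the median of all genes by a similar amount, and the shares of all genes called higher under it are not set beside these counts. Under it, single log2 changes of uncalled genes turned sign: Mrps23 0.035, Mrps18c 0.019, Mrps30 0.0067 and Chchd1 0.013. Leaving out 1 library at a time moved Chchd1 between -0.15 and 0.018 and Tada2b with guide 2 between -0.020 and 0.060. The same runs gave 12 to 26 members higher in the knockout contrast and 8 to 18 lower with guide 1. Members called lower in guide 2 minus guide 1 numbered 0 to 2 in these runs, 3 with no filter on low counts, and 9 with the replicate number as a block, where 9.51% of all genes were called in place of 3.68%. The cause of these shifts was not tested. Libraries of 1 replicate number in different groups had correlations of -0.01 to 0.10 in their deviations from the group means. Those of different numbers had correlations of -0.09 to 0.04. Most same-number values were above 0 and most different-number values below it. All are small and the ranges overlap, so they do not settle whether the replicate numbers pair the samples. The main fit has no replicate block. The block gave 25 higher and 18 lower in the knockout contrast. Of 180 alternative values of the counts and medians, 164 stayed close to the reported value, by the spread between replicates for medians and within 1.5 times for counts. The sign of a median was not part of this rule, so a median near 0 could change sign and still count as close. Calls kept in all 15 alternatives were 22 of 35 in the knockout contrast, 27 of 37 with guide 1, 21 of 28 with guide 2 and 0 of 1 between guides. Depth did not limit the tested members, the least covered of which had 676 reads in a library, and says nothing of Mrpl53.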
